A study of Mus musculus with 18 samples.

Results

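The 10 genes that encode the shelterin and CST complexes at mouse telomeres were read across 6 groups of cultured cells. Shelterin is encoded by Terf1, Terf2, Terf2ip, Tinf2, Pot1a, Pot1b and Acd, and CST by Ctc1, Stn1 and Ten1. Members were taken by gene name, older names included, and not by their values. They were 10 of the 18194 genes with a single listed symbol on the array and were covered by 24 of its 45101 probe sets. A probe set is a group of short oligonucleotides designed to read a transcript, and some sets may also match other transcripts. All samples came from a mouse line called TKO, whose telomeres the labels call dysfunctional. In 3 of the groups the cells expressed p53ER, in which the tumour suppressor p53 is joined to an estrogen receptor and works only in the presence of 4-hydroxytamoxifen (4-OHT). The cells of the other 3 groups were uninfected. For each kind of cell there was a 0 h group, a group given 100 nM 4-OHT for 4 h and a group given vehicle for 4 h, each measured on 3 arrays. No cells infected without the fusion are labelled, so the fusion and the infection that brought it in cannot be told apart. The promoter that drives the fusion, whether the infected cells are 1 clone, and what the vehicle was are not given in the sources used here. Whether the 3 replicates of a group came from separate cultures is not given either. A p-value here therefore sets a difference only against the scatter of arrays within groups, which may be technical.

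Telomeres end in repeated sequence with a single-stranded overhang, and shelterin keeps that end from being read as a broken chromosome. TRF1 (Terf1) and TRF2 (Terf2) bind the double-stranded repeat, RAP1 (Terf2ip) binds TRF2, TIN2 (Tinf2) joins both TRF proteins to TPP1 (Acd), and TPP1 carries the POT1 proteins onto the overhang. Rodents have a pair of POT1 genes, Pot1a and Pot1b, where humans have one. CST is a trimer that binds single-stranded DNA and brings DNA polymerase alpha-primase to the overhang so that the complementary strand is filled in. The study asked which transcripts respond within hours of switching p53 on, and the comparisons below read that question for the proteins that guard chromosome ends.

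The upstream sequences of the CST genes are shown because Ctc1 and Stn1 were the members called higher in the arrays numbered 3. In that comparison 3.51% of all probe sets were called higher. Ten1 is the remaining subunit. Each is the RefSeq sequence of the 250 bases before the annotated start in GRCm38.p6, on the strand of the gene, 5′ to 3′. Ctc1 lies at chr11:69015661-69015910 on the + strand, Stn1 at chr19:47537120-47537369 on the - strand, and Ten1 at chr11:116198605-116198854 on the + strand. Capitals mark GC boxes, GGGCGG or its reverse complement CCGCCC.
Ctc1: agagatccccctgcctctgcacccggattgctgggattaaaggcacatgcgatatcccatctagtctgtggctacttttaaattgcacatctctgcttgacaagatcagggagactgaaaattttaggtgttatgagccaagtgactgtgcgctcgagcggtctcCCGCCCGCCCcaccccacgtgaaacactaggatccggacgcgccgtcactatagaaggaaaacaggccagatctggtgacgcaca
Stn1: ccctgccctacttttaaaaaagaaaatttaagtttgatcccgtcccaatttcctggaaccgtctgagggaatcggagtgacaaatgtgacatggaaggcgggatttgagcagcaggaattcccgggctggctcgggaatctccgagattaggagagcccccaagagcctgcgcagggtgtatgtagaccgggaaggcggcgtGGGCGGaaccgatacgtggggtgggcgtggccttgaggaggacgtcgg
Ten1: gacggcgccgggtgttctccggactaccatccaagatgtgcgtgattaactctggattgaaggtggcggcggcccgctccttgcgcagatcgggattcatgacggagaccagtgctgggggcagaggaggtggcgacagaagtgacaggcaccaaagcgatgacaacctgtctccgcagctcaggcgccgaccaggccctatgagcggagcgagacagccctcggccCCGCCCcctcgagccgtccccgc
Such windows were listed for 9 of the 10 genes, 11 windows in all. A GC box was found on either strand in 5 of the 9 genes, namely Pot1a, Pot1b, Ctc1, Stn1 and Ten1, and in 32.7% of all 32851 listed windows. The p53 half-site, a motif of 10 bases searched on both strands, was in 0 of the 9 and in 7.13% of all windows. These counts describe letters within 250 bases and say nothing of where p53 binds.

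Signal is given as log2 after every array was brought to the same 2% trimmed mean, with an offset of 4.13 added. Before scaling the trimmed means ran from 47.5 to 148. The labels name no cell type beyond the line. All 5 mesenchymal markers read (Vim, Col1a1, Col1a2, Thy1 and Pdgfrb) lay in the upper 60% of probe sets by mean signal, at percentiles from 87.4 upward. Of the other lists, 3 of 4 epithelial, 3 of 4 blood and 2 of 3 endothelial markers also lay in the upper 60%, at percentiles up to 79.7. On the first principal component, 19% of the variance, 3 arrays stood apart, namely replicate 2 of uninfected cells at 0 h and, in p53ER cells, vehicle replicate 1 and 0 h replicate 3. On the second, 15.6% of the variance, all 6 arrays numbered 3 lay on one side and the other 12 on the opposite side. The fusion was active by its known targets: with 4-OHT against vehicle in p53ER cells, Mdm2 rose by 2.92 log2 units (SE 0.40, limma adjusted p = 0.0187) and Pmaip1 by 3.38 (SE 0.50, adjusted p = 0.023). Cdkn1a, at +2.19 (SE 0.49), had an adjusted p of 0.718 in that fit and of 0.00256 with the replicate number as a block.

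In the same cells none of the shelterin or CST genes passed the test. With 4-OHT against vehicle in p53ER cells, 0 of 24 member probe sets had an adjusted p under 0.05, while 4 of all 45101 probe sets did, 0.00887%. At an unadjusted p under 0.05 it was 1 of 24, against 4.1% of all. In 0 of the 24 did the 3 arrays with 4-OHT lie wholly above or wholly below the 3 with vehicle, against 8.41% of all. With the replicate number as a block 0 of 24 passed, beside 0.0244% of all. Read by the brightest probe set of each gene, 4 of 10 differences were positive and 6 negative, with a median of -0.08 log2 units beside 0.03 over all probe sets. The median was -0.10 for shelterin, where 2 of 7 were positive, and 0.20 for CST, where 2 of 3 were. All 10 of the 95% intervals included 0. Apart from Terf1, whose interval ran from -0.92 to 1.00, they lay between -1.03 and 0.79. In simulated data this comparison recovered 0.4% of changes of 0.5 log2 units, 16.4% of changes of 1 and 69.2% of changes of 2. The changes were placed in the upper 60% of probe sets by mean signal, so the shares do not cover dimmer members. Noise was drawn as normal and independent between arrays, without arrays that stand apart or a shared replicate number. Changes of 2 and 3 log2 units were placed in the same sets, which eases the adjusted threshold. Recovery in the real arrays may therefore be lower. A change of 0.5 was thus rarely recovered with 3 arrays a group. Members with narrow intervals, such as Terf2 by its brightest probe set, were measured more closely than that. In RNA from whole cultures, fewer cells with a transcript and less of it per cell cannot be told apart.

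**Figure D1:**
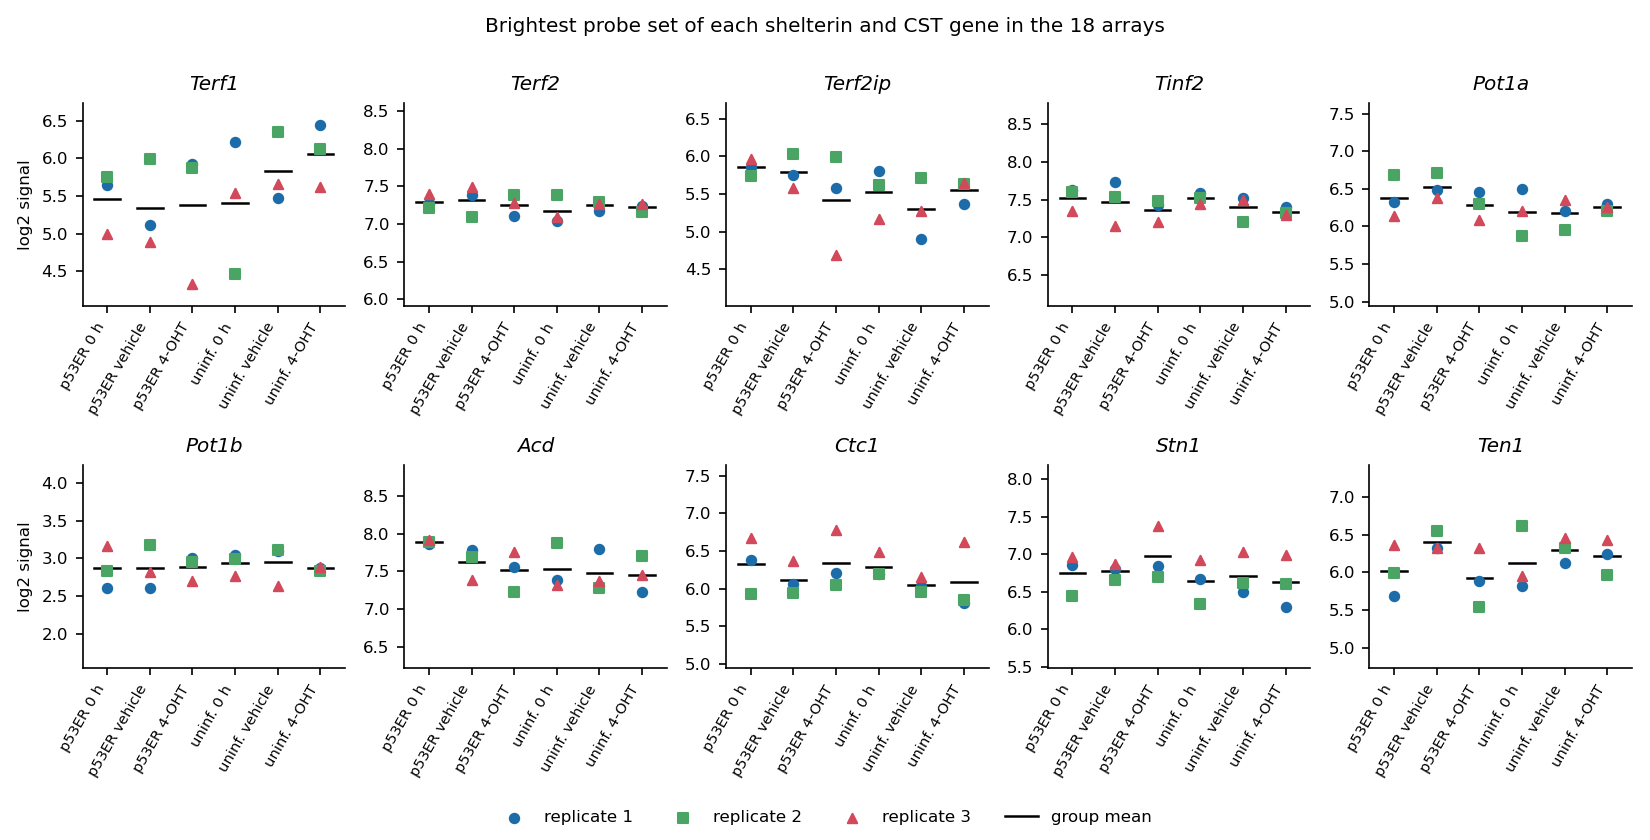
Log2 signal (y axis) of the brightest probe set of each of the 10 genes in the 18 arrays, by group (x axis), with replicate numbers as circles, squares and triangles and the group mean as a bar; every panel spans the same height. Group means lie close together beside the scatter of single arrays, Terf1 scatters the widest, and the triangles of replicate 3 are the highest point in each group for Ctc1 and Stn1.

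Among the proteins on double-stranded repeats, Terf1 was the most variable member. Its probe set 1418380_at read 5.64, 5.76 and 4.99 in p53ER cells at 0 h (replicates 1, 2 and 3), 5.12, 5.996 and 4.89 with vehicle, and 5.92, 5.87 and 4.33 with 4-OHT. In uninfected cells it read 6.22, 4.46 and 5.54 at 0 h, 5.47, 6.36 and 5.66 with vehicle, and 6.45, 6.13 and 5.61 with 4-OHT. The lowest values were p53ER 4-OHT replicate 3 and uninfected 0 h replicate 2, and the p53ER groups with and without 4-OHT overlapped. The 4-OHT arrays of p53ER cells averaged 5.37 ± 0.90 and the vehicle arrays 5.33 ± 0.58 (SD, n = 3 each), which differed by 0.04 (SE 0.46). Paired by replicate number the differences were 0.80, -0.13 and -0.56, with no common sign. Its other probe sets gave 0.31 (SE 0.42) and 0.18 (SE 0.52).

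Terf2, whose protein forms the protective loop of the chromosome end, had the narrowest spread of the 10 by brightest probe set. Probe set 1421147_at read 7.28, 7.21 and 7.40 in p53ER cells at 0 h, 7.39, 7.10 and 7.49 with vehicle, and 7.10, 7.39 and 7.28 with 4-OHT. Uninfected cells read 7.04, 7.38 and 7.09 at 0 h, 7.18, 7.30 and 7.27 with vehicle, and 7.25, 7.16 and 7.27 with 4-OHT. All 18 values fell within 0.45 log2 units and the 6 group means within 0.15. The 4-OHT difference in p53ER cells was -0.07 (SE 0.18, 95% interval -0.44 to 0.30). Its other probe sets spread wider, over 1.07 and 1.98 log2 units, and gave -0.07 (SE 0.25) and 0.09 (SE 0.39).

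Terf2ip, the RAP1 gene, was read by 1426049_a_at. It stood at 5.86, 5.74 and 5.97 in p53ER cells at 0 h, 5.76, 6.04 and 5.58 with vehicle, and 5.58, 5.99 and 4.69 with 4-OHT. Uninfected cells had 5.80, 5.62 and 5.16 at 0 h, 4.91, 5.72 and 5.28 with vehicle, and 5.37, 5.64 and 5.65 with 4-OHT. One array, p53ER 4-OHT replicate 3, lay well under the rest of its group and was also the lowest Terf1 array. The difference with 4-OHT was -0.37 (SE 0.32, interval -1.03 to 0.29), and by replicate number -0.18, -0.05 and -0.89. Without that array it was -0.0052, without 4-OHT replicate 2 it was -0.65, and without replicate 3 of every group -0.11. Terf2ip's other probe sets were dim and gave -0.18 (SE 0.58) and 0.06 (SE 0.47).

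Of the bridging proteins, Tinf2, the TIN2 gene, was read by 1451163_at at 7.63, 7.61 and 7.34 in p53ER cells at 0 h, 7.73, 7.53 and 7.14 with vehicle, and 7.42, 7.48 and 7.20 with 4-OHT. In uninfected cells it read 7.59, 7.52 and 7.44, then 7.52, 7.21 and 7.50 with vehicle and 7.40, 7.33 and 7.30 with 4-OHT. The 6 group means spanned 0.18 log2 units, from 7.34 ± 0.05 in uninfected cells with 4-OHT to 7.53 ± 0.16 in p53ER cells at 0 h. Neighbouring groups in the order of means overlapped, which the ordering favours. The 4-OHT difference in p53ER cells was -0.10 (SE 0.18), and the other Tinf2 probe set gave 0.14 (SE 0.25).

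Acd, the TPP1 gene, whose protein also recruits telomerase, was read by 1420882_a_at. It stood at 7.87, 7.88 and 7.91 in p53ER cells at 0 h, 7.79, 7.69 and 7.38 with vehicle, and 7.56, 7.23 and 7.75 with 4-OHT. Uninfected cells read 7.38, 7.88 and 7.32 at 0 h, 7.80, 7.27 and 7.36 with vehicle, and 7.22, 7.70 and 7.45 with 4-OHT. The p53ER arrays at 0 h were all above both 4 h groups of those cells, and the uninfected groups overlapped one another. Against 0 h the difference was -0.37 (SE 0.21, limma adjusted p = 1) with 4-OHT and -0.27 (SE 0.21) with vehicle, 2 contrasts that share the 0 h arrays. With 4-OHT against vehicle it was -0.11 (SE 0.21), and -0.34 without replicate 3 of every group.

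For the proteins of the single-stranded overhang, Pot1a was read by 1448379_at at 6.33, 6.68 and 6.13 in p53ER cells at 0 h, 6.48, 6.71 and 6.37 with vehicle, and 6.46, 6.29 and 6.08 with 4-OHT. Uninfected cells read 6.50, 5.87 and 6.20 at 0 h, 6.21, 5.95 and 6.35 with vehicle, and 6.30, 6.21 and 6.25 with 4-OHT. Within each replicate number of the p53ER cells the 4-OHT array was below the vehicle array, by -0.02, -0.42 and -0.29, but the groups overlapped. The difference was -0.24 (SE 0.23, interval -0.71 to 0.23) in p53ER cells and 0.08 (SE 0.23) in uninfected cells. Pot1a's other 3 probe sets were dim, below the upper 60% of the array, and gave 0.02, -0.55 and 0.57. Pot1b was dim in every group. Its only probe set, 1430399_at, ranged from 2.60 to 3.18 over the 18 arrays and stood at percentile 9.93 of all probe sets by mean. The group means lay within 0.09 of each other, so no difference between groups was detected with it, and at this level it gives little information on whether the transcript was present.

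In CST, Ctc1 and Stn1 had small positive differences with 4-OHT and Ten1 a negative one. Ctc1, the large subunit, was read by 1423655_a_at at 6.39, 5.93 and 6.67 in p53ER cells at 0 h, 6.06, 5.93 and 6.36 with vehicle, and 6.21, 6.04 and 6.78 with 4-OHT. Uninfected cells read 6.19, 6.20 and 6.48 at 0 h, 6.03, 5.95 and 6.16 with vehicle, and 5.80, 5.84 and 6.62 with 4-OHT. Replicate 3 was the highest array in all 6 groups. The difference in p53ER cells was 0.22 (SE 0.27, interval -0.34 to 0.79), with each replicate number positive at 0.14, 0.11 and 0.42. In uninfected cells it was 0.04 (SE 0.27). Without p53ER 4-OHT replicate 3 the p53ER difference was 0.004.

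The 3 Ctc1 probe sets disagreed. Sets 2 and 3 are of the _x_at type, which may share sequence with other transcripts, and probe sequences were not used here. The second, 1423656_x_at, gave 0.77 (SE 0.33, limma adjusted p = 1), the only member probe set under an unadjusted 0.05 in this comparison, and the third, 1437713_x_at, gave -0.58 (SE 0.34). Without p53ER 4-OHT replicate 3 the third gave -0.21. The second read 5.53, 4.23 and 5.67 with vehicle and 5.90, 5.56 and 6.30 with 4-OHT, and vehicle replicate 2 was its lowest array by far. Without that array the difference was 0.32 and no longer under that threshold. It was also no longer under it, at 0.78 and 0.58, without 4-OHT replicate 1 or 3. The same array sits in the vehicle minus 0 h contrast of the p53ER cells, where this probe set gave -0.95 (SE 0.33, adjusted p = 1 from limma), and -0.49 without it. The first and second probe sets correlated at r = 0.543 over the 18 arrays, and the third correlated with neither (r = -0.091 and -0.108).

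Stn1, which contacts the polymerase, was read by 1434737_at at 6.86, 6.44 and 6.96 in p53ER cells at 0 h, 6.80, 6.65 and 6.87 with vehicle, and 6.84, 6.69 and 7.38 with 4-OHT. Uninfected cells read 6.66, 6.34 and 6.92 at 0 h, 6.50, 6.62 and 7.03 with vehicle, and 6.29, 6.60 and 6.99 with 4-OHT. The highest array of every group was again replicate 3. The 4-OHT difference in p53ER cells was 0.20 (SE 0.25, interval -0.32 to 0.71), made of 0.04, 0.04 and 0.51 by replicate number. Without p53ER 4-OHT replicate 3 it was -0.008. Stn1's other 2 probe sets were dim and gave -0.99 (SE 0.54) and 0.34 (SE 0.33).

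Ten1, the smallest subunit, had the 4-OHT difference farthest from 0 among the brightest probe sets when all arrays were used. Probe set 1427895_at read 6.33, 6.55 and 6.32 in p53ER cells with vehicle and 5.89, 5.55 and 6.33 with 4-OHT. At 0 h these cells read 5.69, 5.998 and 6.37. Of the 3 arrays with 4-OHT, 2 were below all vehicle arrays, the third was level with them, and the 0 h arrays overlapped those with 4-OHT. The mean was 5.92 ± 0.39 for the 4-OHT arrays and 6.40 ± 0.13 for the vehicle arrays (SD, n = 3 each), a difference of -0.48 (SE 0.27, interval -1.03 to 0.08, limma adjusted p = 1), or 0.718-fold. By replicate number it was -0.44, -1.004 and 0.01. Without p53ER 4-OHT replicate 2 it was -0.29, without 4-OHT replicate 3 it was -0.68, and without replicate 3 of every group -0.72. Uninfected cells read 5.82, 6.61 and 5.95 at 0 h, 6.12, 6.32 and 6.46 with vehicle, and 6.24, 5.96 and 6.43 with 4-OHT, a 4-OHT difference of -0.09 (SE 0.27).

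**Figure D2:**
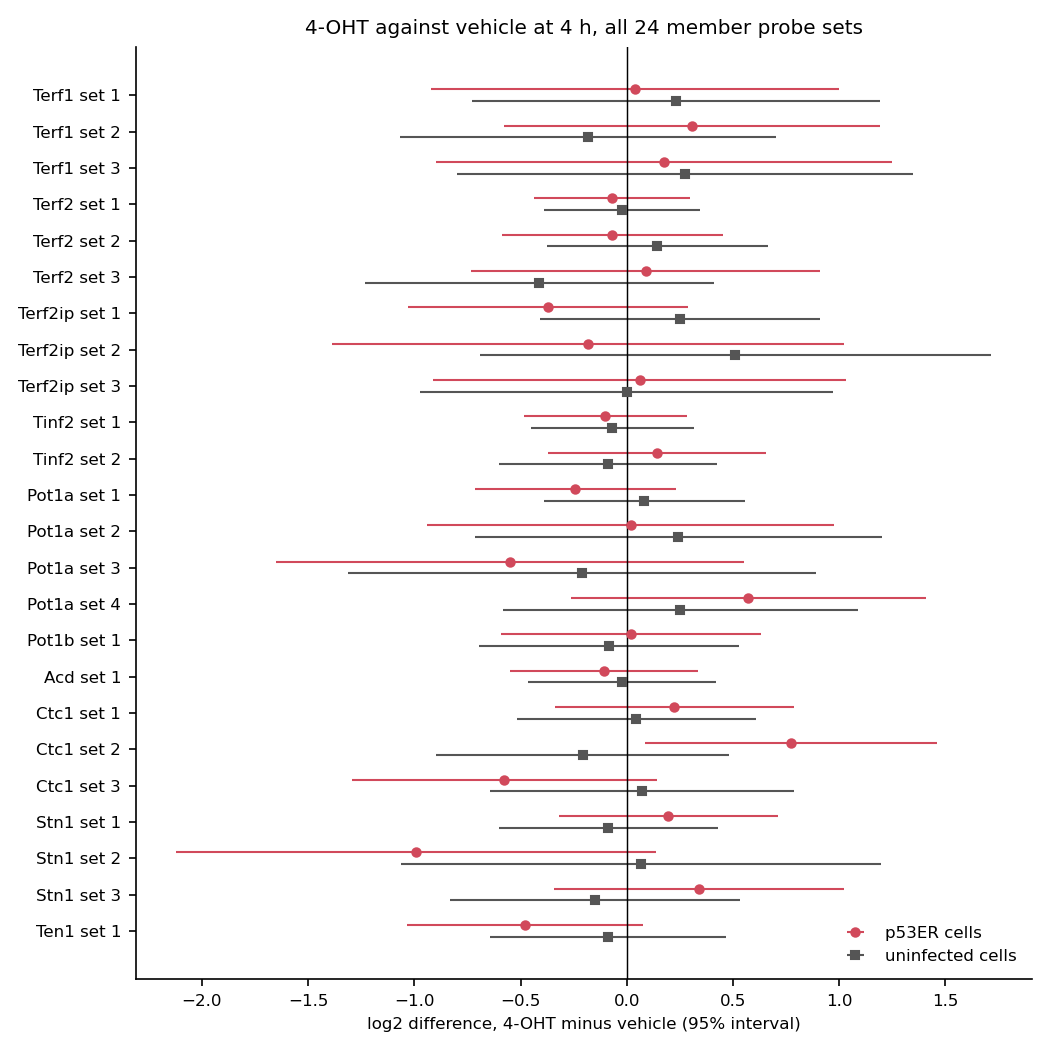
Difference in log2 signal between 4-OHT and vehicle at 4 h (x axis) for all 24 member probe sets (y axis), in p53ER cells (circles) and uninfected cells (squares), with 95% intervals from the fit to all arrays. All p53ER intervals except that of Ctc1 set 2 cross 0, and no probe set passed after adjustment.

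Groups were also ordered by their means. Over the 10 brightest probe sets this gave 50 pairs of neighbours. The arrays of the neighbours overlapped in all but 1, Acd in p53ER cells at 0 h above vehicle. Neighbours were chosen from these same values as the closest means, which favours overlap. The share over all probe sets was not computed, so the count tells nothing particular of these genes. The group means spanned from 0.09 log2 units for Pot1b to 0.73 for Terf1, whose SD within groups was also the highest at 0.65.

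Uninfected cells with 4-OHT against vehicle, which read the drug without the fusion, gave 0 of 24 member probe sets called and 0 under an unadjusted 0.05, beside 0% and 2.16% of all probe sets. In 0 of 24 did the groups not overlap, against 6.89% of all. The 10 differences ran from -0.09 for Ten1 to 0.25 for Terf2ip. The 4-OHT effect in p53ER cells minus that in uninfected cells was tested directly and also called 0 of 24, with 0.00222% of all called. For Terf2ip the difference between the effects was -0.62 (SE 0.45, limma adjusted p = 1), and -0.26 without p53ER 4-OHT replicate 3. For Ten1 it was -0.39 (SE 0.38), and -0.20 without p53ER 4-OHT replicate 2. At an unadjusted 0.05 the count was 1 of 24, against 2.76% of all, and that was Ctc1 set 2 at 0.98, which was 0.52 without p53ER vehicle replicate 2.

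The remaining contrasts reuse arrays of those above and are no independent repeats. Against their own 0 h arrays, p53ER cells with 4-OHT had 0 of 24 called (0.0155% of all), and 0 of 24 were under an unadjusted 0.05 (4.16% of all). With vehicle 0 of 24 were called (0% of all), and 1 of 24, Ctc1 set 2, was under an unadjusted 0.05 (3.84% of all). In 2 of 24 probe sets the 4-OHT and 0 h arrays did not overlap, against 9.62% of all, Acd below 0 h and a dim Terf2ip probe set above it. With vehicle it was 4 of 24 against 7.85% of all. These were the same dim Terf2ip probe set above 0 h, and Acd, Tinf2 set 2 (-0.38) and Ctc1 set 2 below it. Uninfected cells at 4 h, the 4-OHT and vehicle arrays averaged, had 0 of 24 called against 0 h (0.00443% of all) and 0 of 24 under an unadjusted 0.05 (8.42% of all). There Terf1 gave 0.54 (SE 0.40), which was 0.06 without uninfected 0 h replicate 2. Its set 3 gave -0.77 with no overlap, the only such member beside 4.99% of all.

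Cells with the fusion and without it were also compared in the absence of 4-OHT, with the 0 h and vehicle arrays averaged. Untreated p53ER cells against untreated uninfected cells, 6 arrays a side, gave 0 of 24 called (0.00222% of all) and 0 of 24 under an unadjusted 0.05 (3.96% of all), with 7 of 10 differences positive and a median of 0.07. In 0 of 24 did the sides not overlap (0.186% of all). Terf2ip gave 0.41 (SE 0.22, limma adjusted p = 1), Pot1a 0.27 (SE 0.16) and Acd 0.25 (SE 0.15). With 4-OHT on both sides, 0 of 24 were called (0.0177% of all) and 1 of 24 was under an unadjusted 0.05 (3.77% of all). Terf1 gave -0.69 (SE 0.46), which was -0.17 without p53ER 4-OHT replicate 3. Ctc1 set 3 was below in all 3 p53ER arrays at -0.76 (limma adjusted p = 1), the only member under that threshold and the only one without overlap, beside 10.2% of all. Without p53ER 4-OHT replicate 3 it was -0.39.

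The brightest probe sets of Ctc1 and Stn1 were among the many on the array that differed by replicate number. Replicate 3 against the mean of replicates 1 and 2, with the group held in the fit, called 2 of 24 probe sets, both higher. The background was large, 7.52% of all probe sets called, 3.51% higher and 4.02% lower, and 2 of 24 is near it. At an unadjusted 0.05 it was 5 of 24 against 18.8% of all. Ctc1 rose by 0.46 log2 units (SE 0.12, 95% interval 0.20 to 0.73, limma adjusted p = 0.0256) and Stn1 by 0.42 (SE 0.11, interval 0.18 to 0.66, adjusted p = 0.0279). Replicate 3 exceeded the mean of the others by 0.17 to 0.80 over the 6 groups for Ctc1 and by 0.14 to 0.61 for Stn1, higher in 6 of 6 groups for each. Ten1, the third subunit, gave 0.22 (SE 0.15, adjusted p = 0.51) and was higher in 4 of 6. What the number stands for is not given in the sources used here.

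Both calls lay near the threshold, and with each array left out in turn the difference stayed between 0.40 and 0.52 for Ctc1 and between 0.38 and 0.47 for Stn1. Ctc1 lost its call without p53ER 0 h replicate 3 (0.46, adjusted p = 0.0615), p53ER 4-OHT replicate 3 (0.42, 0.0899), uninfected 4-OHT replicate 1 (0.43, 0.0524) or uninfected 4-OHT replicate 3 (0.40, 0.115), each p from limma. Stn1 lost its own, at limma adjusted p-values from 0.0514 to 0.0987 and differences from 0.38 to 0.42, without any 1 of 8 arrays. These were p53ER 0 h replicate 2, p53ER 4-OHT replicates 2 and 3, uninfected 0 h replicate 3, uninfected vehicle replicates 1 and 3, and uninfected 4-OHT replicates 1 and 3. In p53ER arrays alone Ctc1 gave 0.51 and Stn1 0.36, and in uninfected arrays alone 0.42 and 0.48, none past the threshold with 9 arrays. The second Ctc1 probe set gave 0.38 (SE 0.18, adjusted p = 0.255) and the third 0.02. Stn1's other probe sets, which were dim, gave 0.19 (SE 0.34) and 0.07 (SE 0.21).

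Among shelterin genes 0 of 7 passed in that comparison and 1 of 7 differences was positive, with a median of -0.10. Terf1 gave -0.61 (SE 0.25, limma adjusted p = 0.182) and was lower in 5 of 6 groups, and its second probe set gave -0.62 (SE 0.23, adjusted p = 0.129), lower in 6 of 6. The third Terf1 probe set gave -0.06 (SE 0.33) and was higher in 4 of 6. Tinf2 gave -0.17, lower in 5 of 6. Other genes moved with replicate 3. Of the mesenchymal markers 3 of 5 were called lower, Col1a1 by 0.95, Thy1 by 0.92 and Pdgfrb by 1.54. So were 1 of 4 epithelial, 1 of 4 blood and 1 of 3 endothelial markers, beside 4.02% of all probe sets. The p53 targets Mdm2 and Cdkn1a rose by 0.72 and 0.96, where 3.51% of all probe sets were called higher. The part of these genes in the Ctc1 and Stn1 values was not tested.

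**Figure D3:**
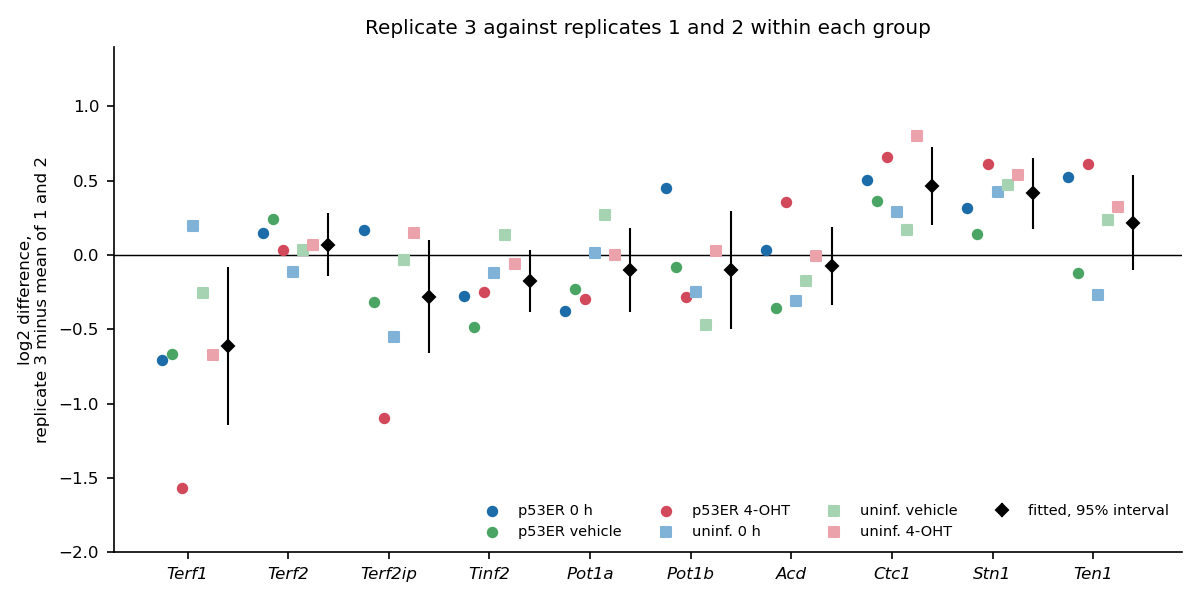
Replicate 3 minus the mean of replicates 1 and 2 in log2 signal (y axis) for the brightest probe set of each gene (x axis), with a coloured point for each of the 6 groups and a black diamond with its 95% interval for the fit. All 6 points lie above 0 for Ctc1 and Stn1, and 5 of 6 lie below 0 for Terf1 and Tinf2.

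Other genes of telomere upkeep were read from a list of 45, of which 43 were found on the array. With 4-OHT against vehicle in p53ER cells 0 of 43 passed, and 0 were under an unadjusted 0.05, beside 4.1% of all probe sets. Of the 43, 22 were positive and the median was 0.02. Telomerase and its assembly factors had 3 of 11 positive with a median of -0.11. Tert, the catalytic subunit, gave -0.57 (SE 0.57), Wrap53, which guides telomerase to Cajal bodies, 0.27 (SE 0.23) and Nop10 -0.26 (SE 0.19). Of DNA polymerase alpha-primase, the partner of CST, 1 of 4 was positive: Pola1 gave 0.88 (SE 0.99), Pola2 -0.51 (SE 0.27) and Prim1 -0.15 (SE 0.19). Nucleases, helicases and repair factors had 10 of 16 positive with a median of 0.18, and Dclre1b, the Apollo nuclease that TRF2 recruits, gave -0.92 (SE 0.52), Wrn 0.38 (SE 0.39) and Rtel1 -0.37 (SE 0.29). Modifiers of shelterin and telomere chromatin had 8 of 12 positive with a median of 0.11, where Atrx gave 0.92 (SE 0.95), Zbtb48 0.55 (SE 0.39) and Hmbox1 -0.54 (SE 0.33). All had a limma adjusted p of 1.

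In the other 7 group comparisons 0 of these 43 genes passed either. Under an unadjusted 0.05 there were 0 to 4 of 43, beside 2.16% to 8.42% of all probe sets. Untreated p53ER against untreated uninfected cells had 9 of 43 positive with a median of -0.11, where 47.9% of all probe sets were positive, and with 4-OHT on both sides 14 of 43, also with a median of -0.11. All 11 telomerase genes were lower in untreated p53ER than in untreated uninfected cells, with a median of -0.13, but none passed. With 4-OHT on both sides 2 of 11 were positive, with a median of -0.26, and none passed either. By replicate number 5 of 43 rose, beside 3.51% of all probe sets, and 0 fell. These were the telomerase particle proteins Nhp2 (0.85, adjusted p = 7.58e-05 from limma) and Gar1 (0.40, adjusted p = 0.0169), the assembly factors Naf1 (0.39, 0.0343) and Ruvbl1 (0.37, 0.0431), and Xrcc6, the Ku70 gene (0.41, 0.00766). All 11 telomerase genes were higher in replicate 3, with a median of 0.32.

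Across arrays, Ctc1 and Stn1 had the highest correlation of any pair among the 10 brightest probe sets, r = 0.798 over 18 arrays and 0.869 after group means were removed. Over the 12 arrays of replicates 1 and 2 it was 0.531, where Tinf2 and Acd had 0.556 and Tinf2 and Pot1a 0.528. Terf1 ran against Ctc1 (r = -0.649) and Terf2 (r = -0.55). All of these points share their array's scaling and its replicate number. Among the 10 genes, probe sets of one gene reached r = 0.614 for Terf1, 0.547 for Tinf2 and 0.522 for Terf2ip, but -0.003 for the brighter pair of Terf2 and -0.434 for Pot1a sets 1 and 4.

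**Figure D4:**
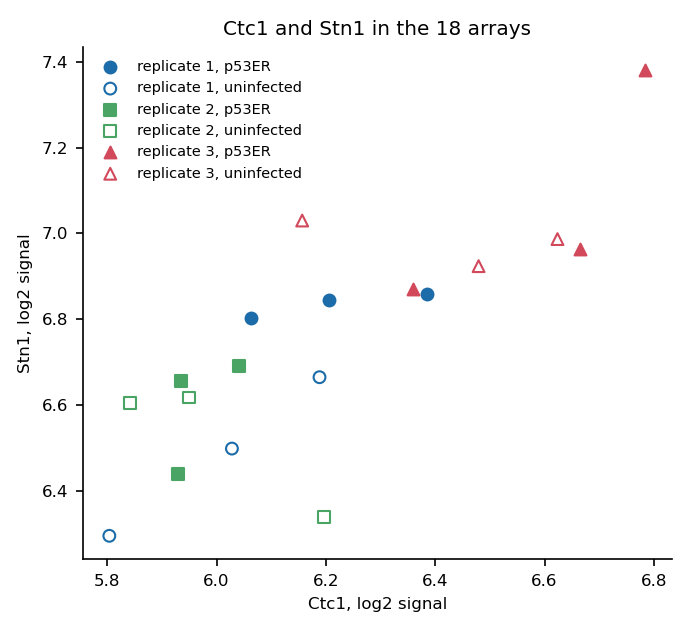
Log2 signal of Stn1 (y axis) against Ctc1 (x axis) in the 18 arrays, with shapes for replicate numbers, filled for p53ER and open for uninfected cells. All 6 replicate 3 arrays lie above the other 12 for Stn1, with p53ER 4-OHT replicate 3 the highest for both genes.

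The probe sets of other genes with the closest pattern were found by Pearson correlation over the 18 arrays among probe sets in the upper 60% by mean. For Ctc1 they were Tgfbi (r = 0.883), 1110008P14Rik (0.882) and Rasa3 (0.869), and for Stn1 Evi2a (0.898), Rcan1 (0.869) and Wdr61 (0.867). Terf1 was closest to Nusap1 (0.909), Cnot6l (0.89) and Lin54 (0.887). Tinf2 was closest to Stat2 (0.88), Pot1b to Mfsd12 (0.873), Pot1a to Pigp (0.837), Terf2 to Mical1 (0.826), Ten1 to Upf1 (0.811), Terf2ip to Lmo4 (0.787) and Acd to Armc6 (0.763). Each is the highest of at least 23070 correlations across few arrays.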

How the data were processed

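Total RNA from 18 samples of the TKO line was hybridised to Affymetrix Mouse430_2 arrays. The deposited values were linear signal intensities made by the authors with MAS5, per the submitters' processing notes, with no version given. Each array was scaled to a 2% trimmed mean of 82.7, and log2(signal + 4.13), an offset of 5% of that mean, was used. The array annotation gave 34958 probe sets 1 gene, 932 several and 9211 none. Members were matched by symbol and Entrez ID, and a gene was read by its probe set of highest mean, with the others beside it. The members and lists were chosen with earlier results of these data known.

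All 45101 probe sets were fitted with limma 3.58.1 (R 4.3.3, data.table version 1.17.8, matplotlib 3.10.9) as 6 group means, with a trended robust prior, 12 residual degrees of freedom, two-sided p-values and Benjamini-Hochberg adjustment over all probe sets at 0.05. The smallest exact permutation p for 3 against 3 is 0.1. Replicate 3 was compared in a fit with the replicate number added, with 10 degrees of freedom. Whether numbers pair arrays was checked by correlating their deviations from the group means. All pairs exceeded 0.1 for 4-OHT against vehicle, at 0.147 to 0.31 (p53ER) and 0.145 to 0.413 (uninfected), and for p53ER 4-OHT against 0 h, at 0.153 to 0.303. The other comparisons had lower pairs, down to -0.237, and 13 of the 18 arrays correlated best with their own number. The pairing comes from the labels' numbers alone, so the block was an alternative.

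The fit was tested on simulated data, 10 sets per comparison on 45101 probe sets. Changes of all sizes were placed together in the upper 60% by mean signal. Noise was normal and independent between arrays, so recovery in the real arrays may differ. For replicate 3 the fit recovered 9% of changes of 0.5 log2 units and 53.4% of changes of 1. Named besides the members were, per list, genes past the threshold or the 3 largest differences, 3 p53 targets, and the 3 closest correlates among the upper 60% of probe sets. Alternatives were quantile normalization, no offset, an offset of 20%, the upper 60% of probe sets, 1 probe set per gene, the replicate block, only the groups compared, a plain prior, array weights, each array left out, and replicate 3 of every group or the 3 arrays that lay apart left out. Leaving out those 3 arrays with the block as well was chosen after seeing the data.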

Additional observations from a re-analysis of the deposited data

How the results depend on the processing

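In the 8 group comparisons 0 member probe sets were called under every alternative that was run, the replicate block and leaving out each array included. With the replicate block 0 of 24 members were called with 4-OHT against vehicle in p53ER cells, where 11 of all probe sets were (0.0244%) in place of 4, and the block changed no other member call. By replicate number, the 2 member calls became 1 without the trended robust prior (Stn1 at a limma adjusted p of 0.0623), 0 in p53ER arrays alone and 0 in uninfected arrays alone, which hold fewer arrays, 3 without the 3 arrays that lay apart, and 0 to 3 with each array left out.

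Signs turned for members whose 4-OHT difference in p53ER cells was near 0, and for Stn1 at 0.20. None of them was called, and the cause was not tested. Terf1 (0.04) was -0.075 with quantile normalization, -0.069 without the 3 arrays that lay apart and -0.16 with the block as well, and ran from -0.24 to 0.56 with each array left out. Pot1b (0.02) was -0.060, -0.11 and -0.14 in the same settings and from -0.11 to 0.18. Tinf2 (-0.10) was 0.0305 without the 3 arrays, and from -0.26 to 0.0305. Terf2 (-0.07) was 0.0011 without replicate 3 of every group, and from -0.18 to 0.013. Acd (-0.11) was -0.34 and Terf1 0.34 without replicate 3 of every group. Acd ran from -0.23 to 0.035 and Stn1 from -0.008 to 0.34. In uninfected cells at 4 h against 0 h, Terf1 (0.54) was -0.13 without the 3 arrays and with the block.

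The number of arrays limits precision here, 3 a group, and 8 of the 24 member probe sets, Pot1b's only one among them, lay below the upper 60% by signal, where the offset understates fold changes.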
